A study of Oryza sativa with 18 samples.

Results

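Flag leaves of a rice line that overexpresses the phosphate exporter gene OsPHO1;2 were compared with wild-type flag leaves at 5DAF, the earlier of the sampled stages of grain filling. The comparison takes 6 of the 18 libraries of the study, chosen by their labels: 3 libraries of OsPHO1;2-OE (OE) and 3 of the wild type (WT). The other libraries are the mutant line Ospho1;2-Ko1 (Ko1) at 5DAF and all 3 genotypes at 15DAF, with 3 libraries in each group. By its title the series asks how photosynthesis of this leaf is regulated during filling, and all plants stood in a paddy field. The OE line is given as overexpression only. The sources used here give neither its promoter, nor the number of transformation events behind it, nor the rice cultivar, so a transgene effect and a difference in genetic background cannot be told apart. The labels do not tie replicates to separate plants, so the p-values reflect the spread among libraries, which may be technical.

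The flag leaf is the last leaf to form on a rice stem and feeds the filling grain with sugars. PHO1 proteins export inorganic phosphate out of cells, in rice as in Arabidopsis, and OsPHO1;2 is best known for moving phosphate toward the shoot and out of cells in the filling grain. When phosphate runs short, the transcription factors PHR1 and PHR2 switch on a set of genes that includes the noncoding RNA IPS1, SPX proteins that hold PHR back, acid phosphatases and enzymes that replace phospholipids. Levels of these genes are therefore commonly read as a sign of a cell's phosphate status.

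The OE libraries held between 14303634 and 14827031 counts and the WT libraries between 14122797 and 16122046. Levels are given as CPM, read counts scaled to a common library total. The library labelled WT 5DAF replicate 3 stood apart from the other WT libraries. On log2 CPM across the 20437 genes tested, its mean correlation was 0.939 with the OE libraries, 0.960 with the Ko1 5DAF libraries and 0.936 with WT replicates 1 and 2. WT replicates 1 and 2 correlated at 0.961 with each other. The summed level of 6 flag leaf marker genes was between 13717 and 14751 FPKM in OE and between 10312 and 15394 FPKM in WT, with the lowest WT value in replicate 3. Of 45 developing grain markers, 21 were at 0 in every OE and WT library. Their sums were between 7.83 and 9.70 FPKM in OE and between 7.88 and 15.0 FPKM in WT, with the highest again in WT replicate 3. The 16 markers of dividing tissue summed to between 580 and 664 FPKM in OE and between 605 and 659 FPKM in WT. The part of these marker levels in the results was not tested. The numbers of genes called between OE and WT are therefore given with all libraries and again with this library left out. The latter form leaves 2 WT libraries and is written as without WT-labelled replicate 3. Single genes and lists are not all given in both forms.

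OsPHO1;2 itself (LOC_Os02g56510, chromosome 2, 34609408 to 34615666, described as phosphate transporter 1) was above WT in every OE library. It read 5.91, 8.89 and 9.74 CPM in OE, 3.38, 2.78 and 1.10 CPM in Ko1 and 1.72, 3.52 and 2.25 CPM in WT replicates 1 to 3. The OE and WT ranges did not overlap, as was the case for 8.92% of the genes tested. The log2 fold change of 1.71 (SE 0.513, n = 3 each) did not pass over all genes (edgeR adjusted p = 0.405). Without WT-labelled replicate 3 it was 1.65 (SE 0.601, edgeR adjusted p = 0.973). Against Ko1, a comparison whose means use no WT library, OsPHO1;2 was higher in OE by 1.76 on the log2 scale (SE 0.514, edgeR adjusted p = 0.0316). WT libraries do enter the scaling, the filter and the estimate of spread in that fit. At 15DAF it read 17.995, 4.75 and 29.5 CPM in OE against 1.78, 2.58 and 3.25 CPM in WT, again with no overlap. The share of all genes without overlap was not taken at that stage. The difference between OE and WT passed in the fit without WT-labelled replicate 3 (log2 2.77, edgeR adjusted p = 0.0489). With all libraries it did not pass (edgeR adjusted p = 0.122). Ko1 at 15DAF had 97, 83 and 100 counts of OsPHO1;2, against 302, 74 and 469 counts in OE, so OE and Ko1 overlapped there. Strand use is not stated, so reads from an antisense transcript at this locus cannot be told apart from OsPHO1;2.

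Few genes passed the test between OE and WT leaves, and a gene that did not pass may still differ between them. With all libraries, 8 of 20437 genes passed the test (edgeR adjusted p under 0.05), which is 0.0391%, with 4 higher and 4 lower in OE (0.0196% each way). Without WT-labelled replicate 3, 38 of 20900 genes passed, which is 0.182%, with 11 higher (0.0526%) and 27 lower (0.129%) in OE. Of these calls, 7 were shared, 1 was found only with all libraries and 31 only without that library. All of them differed by at least 2-fold. The median log2 fold change over all genes was −0.00 with all libraries and 0.01 without that library. In leaf RNA, fewer cells of a type and less RNA per cell cannot be told apart.

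**Figure D1:**
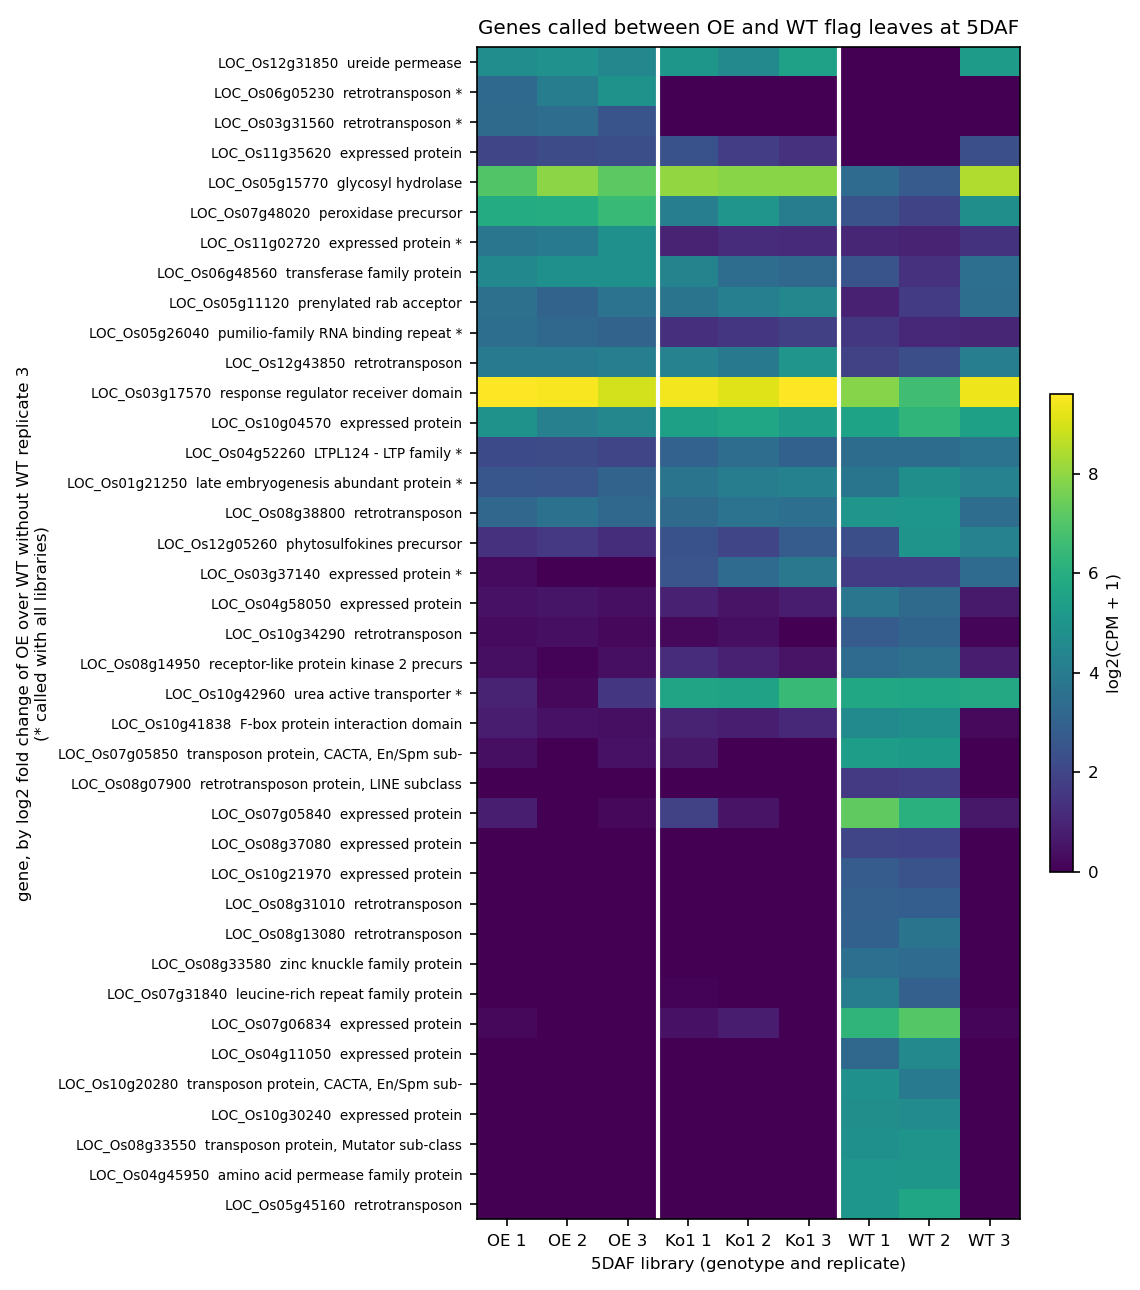
Heat map of log2(CPM + 1) for the 39 genes called in either form of the comparison (rows, named by locus and description; an asterisk marks those called with all libraries) in the OE, Ko1 and WT libraries of 5DAF (columns). Near the bottom, 13 genes are at 0 in all 3 OE libraries and in WT replicate 3, and above 0 in WT replicates 1 and 2.

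Of the 4 genes that rose in OE with all libraries, 2 were loci described as unclassified retrotransposons, mobile elements that copy themselves through RNA. LOC_Os06g05230 (chromosome 6, 2343537 to 2349553) had 116, 205 and 367 counts in OE and 0 counts in every Ko1 and WT library of 5DAF. It was at least 248-fold higher in OE than in WT, taking a floor of 3 counts over the WT group (edgeR adjusted p = 0.00986). LOC_Os03g31560 (chromosome 3, 18004456 to 18011507) had 118, 130 and 59 counts in OE and again 0 in every Ko1 and WT library. It was at least 111-fold higher (edgeR adjusted p = 0.00935). Such loci have near-identical copies elsewhere in the genome, and the sources used here do not give how the authors counted shared reads.

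The other genes that rose with all libraries were LOC_Os11g02720 and LOC_Os05g26040. LOC_Os11g02720 (chromosome 11, 882110 to 885904), described only as an expressed protein, read 12.7, 14.4 and 27.0 CPM in OE, against 1.04, 0.920 and 1.66 CPM in WT. Every OE library was above every WT library, with a log2 fold change of 3.89 (SE 0.369, n = 3 each, edgeR adjusted p = 0.000136). LOC_Os05g26040 (chromosome 5, 15136288 to 15147503) is described as a pumilio-family RNA binding protein, a family that binds mRNA and commonly represses it. It read 10.1, 8.15 and 7.25 CPM in OE, against 1.93, 1.15 and 1.06 CPM in WT (log2 2.61, SE 0.419, edgeR adjusted p = 0.0346). Without WT-labelled replicate 3 this gene missed the test (log2 2.45, edgeR adjusted p = 0.0549).

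The urea active transporter gene LOC_Os10g42960 (chromosome 10, 23156882 to 23159606) fell in OE. Transporters of this kind carry urea into plant cells. It read 0.910, 0.149 and 1.87 CPM in OE, 47.7, 44.9 and 86.4 CPM in Ko1 and 52.2, 48.4 and 53.9 CPM in WT. All 3 OE libraries lay far below the rest, WT replicate 3 included. The log2 fold change against WT was −5.72 (SE 0.813, edgeR adjusted p = 0.00986) with all libraries and −5.68 (SE 0.844, edgeR adjusted p = 0.00402) without that library. With all libraries the call ended without OE replicate 1 or OE replicate 2, and the adjusted p over the fits that left out 1 library ran up to 0.117.

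A further 3 genes fell with all libraries. LOC_Os03g37140 (chromosome 3, 20584426 to 20593423), an expressed protein, had 3, 0 and 0 counts in OE against 32, 30 and 141 counts in WT. The ratio of WT to OE was 62.5, with a 95% counting interval of 21.1 to 306 (edgeR adjusted p = 0.0408). LOC_Os04g52260 (chromosome 4, 31061682 to 31062703), described as LTPL124 of the lipid transfer protein family, read 3.49, 3.74 and 2.96 CPM in OE against 9.59, 9.42 and 11.7 CPM in WT. Its log2 fold change was −1.59 (SE 0.258, edgeR adjusted p = 0.0346). LOC_Os01g21250 (chromosome 1, 11863920 to 11864332), a late embryogenesis abundant (LEA) protein of the kind that protects cells in drying tissue, read 4.85, 4.78 and 7.25 CPM in OE against 12.4, 26.1 and 18.2 CPM in WT. Its log2 fold change was −1.74 (SE 0.287, edgeR adjusted p = 0.0349). These 3 genes had their lowest levels in the OE libraries among all OE, Ko1 and WT libraries of 5DAF.

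Of the 8 genes, 3 kept their call in each of the 6 fits that left out 1 library of the comparison: LOC_Os03g31560, LOC_Os06g05230 and LOC_Os11g02720. LTPL124 and LOC_Os01g21250 lost it without any 1 OE library or without WT replicate 2, and LOC_Os03g37140 without any 1 OE library. LOC_Os05g26040 kept its call only without WT replicate 1. With only the OE and WT libraries of 5DAF in the fit, LTPL124, LOC_Os01g21250, LOC_Os03g37140 and LOC_Os05g26040 lost it (edgeR adjusted p between 0.158 and 0.716). When WT-labelled replicate 3 was already left out, LTPL124 lost its call without any 1 further library.

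Without WT-labelled replicate 3, genes with known transport, wall and clock roles joined the higher group. The ureide permease gene LOC_Os12g31850 (chromosome 12, 19161734 to 19166420) had 328, 371 and 269 counts in OE, 441, 358 and 629 counts in Ko1 and 0, 0 and 558 counts in WT replicates 1 to 3. Ureide permeases carry allantoin and other nitrogen-rich ureides. The gene was at least 226-fold higher in OE than in WT replicates 1 and 2 (edgeR adjusted p = 2.16e-06). With all libraries its log2 fold change was 0.98 (edgeR adjusted p = 0.898). LOC_Os11g35620, an expressed protein, had the same pattern, with 40, 48 and 51 counts in OE and 0, 0 and 62 counts in WT (at least 32.5-fold higher without that library, edgeR adjusted p = 0.0391). Its call ended when any 1 further library was left out.

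The glycosyl hydrolase gene LOC_Os05g15770 (chromosome 5, 8902479 to 8903793), one of a class of enzymes that cut sugar bonds, read 125, 245 and 142 CPM in OE against 9.11, 5.75 and 346 CPM in WT. Its log2 fold change without WT-labelled replicate 3 was 4.51 (SE 0.562, edgeR adjusted p = 0.000545). In Ko1 at 5DAF it had 3468, 3794 and 3445 counts, beside 1642, 3275 and 1817 counts in OE. The peroxidase gene LOC_Os07g48020 (chromosome 7, 28673754 to 28675433), a secreted class of enzyme that acts in the cell wall, read 58.3, 59.5 and 88.0 CPM in OE against 4.41, 2.91 and 26.6 CPM in WT. The OE libraries stood above all WT libraries here, with a log2 fold change of 4.22 without that library (SE 0.437, edgeR adjusted p = 8.60e-05) and 2.59 with all libraries (edgeR adjusted p = 0.195). The transferase family gene LOC_Os06g48560 was likewise above every WT library. It read 21.2, 27.0 and 26.8 CPM in OE against 4.55, 1.61 and 10.4 CPM in WT. Without WT-labelled replicate 3 its log2 fold change was 3.001 (edgeR adjusted p = 0.00230), and this call ended when WT replicate 2 was also left out. With all libraries the gene did not pass.

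PRR73 (LOC_Os03g17570, chromosome 3, 9759479 to 9768690) encodes a pseudo-response regulator, a repressor within the circadian clock. It read 749.7, 719 and 494 CPM in OE, 685, 551 and 769 CPM in Ko1 and 229, 98.5 and 656 CPM in WT. Both WT replicates 1 and 2 lay below every OE library, and WT replicate 3 lay among them. Its log2 fold change was 1.99 without WT-labelled replicate 3 (SE 0.317, edgeR adjusted p = 0.00784) and 0.996 with all libraries (edgeR adjusted p = 0.636). Without that library the call also ended without WT replicate 2 (edgeR adjusted p = 0.170) and with only the OE and WT libraries in the fit (edgeR adjusted p = 0.268). The prenylated rab acceptor gene LOC_Os05g11120 and the retrotransposon locus LOC_Os12g43850 also rose (log2 2.75 and 2.22, edgeR adjusted p = 0.000895 and 0.0135). The protein family of the former acts in membrane traffic. LOC_Os05g11120 had 140, 99 and 149 counts in OE and 157, 272 and 303 counts in Ko1 at 5DAF. LOC_Os12g43850 had 199, 190 and 208 counts in OE and 240, 222 and 445 counts in Ko1. The call of LOC_Os05g11120 ended with only the OE and WT libraries in the fit (edgeR adjusted p = 0.137), and that of LOC_Os12g43850 without WT replicate 1 or WT replicate 2 (edgeR adjusted p up to 0.149).

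Loci with 0 counts in OE made up much of the lower group. Of the 38 genes called without WT-labelled replicate 3, 13 had 0 counts in all 3 OE libraries. All 13 were also at 0 in WT replicate 3, and 12 were at 0 in all 3 Ko1 libraries, where LOC_Os07g31840 had a single count. In WT replicates 1 and 2 together these loci had between 61 and 1103 counts. The amino acid permease gene LOC_Os04g45950 (chromosome 4, 27214090 to 27218840), of a family that imports amino acids, had 466 and 429 counts in WT replicates 1 and 2, so that it was at least 426-fold lower in OE (edgeR adjusted p = 5.45e-06). The retrotransposon locus LOC_Os05g45160 had 458 and 645 counts there and was at least 525-fold lower in OE (edgeR adjusted p = 2.72e-05).

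The other named genes at 0 in OE were mostly mobile elements. The Mutator transposon locus LOC_Os08g33550 was at least 375-fold lower in OE than in WT replicates 1 and 2, and the CACTA transposon locus LOC_Os10g20280 at least 279-fold (edgeR adjusted p = 2.72e-05 and 0.000218). The retrotransposon loci LOC_Os08g13080 and LOC_Os08g31010 were at least 121-fold and 84.7-fold lower (edgeR adjusted p = 0.000216 and 0.00152). The zinc knuckle gene LOC_Os08g33580 and the leucine-rich repeat gene LOC_Os07g31840 were at least 129-fold and 149-fold lower (edgeR adjusted p = 0.000521 and 0.000356). Over all 38 called genes, 9 are described as retrotransposons, 3 as DNA transposons and 11 only as expressed proteins. Of the 433 retrotransposon loci tested in that form, 3 rose and 6 fell, and of the 307 DNA transposon loci 0 rose and 3 fell, against 0.0526% of all genes higher and 0.129% lower. With all libraries, 2 of 403 retrotransposon loci rose and 0 fell, and 0 of 298 DNA transposon loci passed, against 0.0196% of all genes each way.

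Other genes fell in OE and were still read there. The F-box gene LOC_Os10g41838 (chromosome 10, 22516025 to 22517963), of a family that picks proteins for degradation, read 0.682, 0.374 and 0.312 CPM in OE against 22.6, 26.7 and 0.199 CPM in WT. The receptor-like kinase gene LOC_Os08g14950 read 0.303, 0.0747 and 0.312 CPM in OE against 9.18, 10.5 and 0.663 CPM in WT. The F-box gene had 9, 5 and 4 counts in OE and 12, 12 and 17 counts in Ko1 at 5DAF. The kinase gene had 4, 1 and 4 counts in OE and 18, 14 and 6 counts in Ko1. In both genes WT replicate 3 lay near the OE libraries. Without it their log2 fold changes were −5.72 (SE 0.505, edgeR adjusted p = 2.30e-05) and −5.37 (SE 0.921, edgeR adjusted p = 0.0173). The call of LOC_Os10g41838 held in each of the 5 fits that left out 1 further library. That of LOC_Os08g14950 ended without any 1 OE library and without WT replicate 2. LOC_Os12g05260, a precursor of the peptide hormone phytosulfokine, read 1.59, 2.02 and 1.40 CPM in OE against 3.93, 30.3 and 18.2 CPM in WT. Its fall (log2 −3.33, SE 0.639, edgeR adjusted p = 0.0436) ended without WT replicate 2, at log2 −1.23, without any 1 OE library, and with only the OE and WT libraries in the fit (edgeR adjusted p = 0.491).

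Among the 38 genes, 22 kept their call in each of the 5 further fits that left out 1 of the remaining libraries, 6 higher and 16 lower in OE. The 16 others all lost it without WT replicate 2, which leaves 1 WT library whose spread is assumed from the other groups.

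Over the 39 genes called in either form, the OE libraries lay above all Ko1 and WT libraries of 5DAF in 6 genes and below all of them in 7. Over all 20900 genes the shares were 2.17% above and 2.88% below. The 39 genes were called on the difference between OE and WT, which is part of this count, so it is a description only. Those above were LOC_Os03g31560, LOC_Os06g05230, LOC_Os11g02720, LOC_Os05g26040, the peroxidase gene LOC_Os07g48020 and the transferase gene LOC_Os06g48560. Those below were the urea transporter gene LOC_Os10g42960, LTPL124, the LEA gene LOC_Os01g21250, the phytosulfokine precursor LOC_Os12g05260, the receptor-like kinase gene LOC_Os08g14950, LOC_Os03g37140 and LOC_Os10g04570. On log2 CPM, the Ko1 mean of 5DAF was nearer to OE than to WT replicates 1 and 2 in 30 of the 39 genes. WT replicate 3 was nearer to the OE mean in 29 of them. These counts too are a description only, since the genes were called on OE and WT. In the direct comparison of OE with Ko1, 10 of the 38 genes passed in the fit without WT replicate 3. Over all genes 20.7% did.

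The called genes were spread unevenly over the chromosomes. Chromosome 8 held 8 of the 39 genes, or 20.5%, and 6.74% of the genes tested, and chromosome 10 held 7, or 17.9%, and 5.21% of the genes tested. All of these were lower in OE. Chromosomes 2 and 9 held none, although OsPHO1;2 lies on chromosome 2. The closest neighbours were LOC_Os07g05840 and the CACTA locus LOC_Os07g05850, 0.376 kb apart, and LOC_Os08g33550 and LOC_Os08g33580, 13.1 kb apart. Both members of each pair fell without WT-labelled replicate 3. The calls of the chromosome 7 pair ended when any 1 further library was left out. Those of the chromosome 8 pair held in each such fit.

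Libraries from 15DAF, none of which enters the means at 5DAF, gave many of the same calls. In the fit without WT-labelled replicate 3, 29 of 20900 genes passed between OE and WT at 15DAF, which is 0.139%. Of these, 25 (86.2%) were also called at 5DAF, and they make up 65.8% of the 38 genes called there. All 25 had the same direction at both stages. That library is in neither 15DAF group and acts on this count only through the shared fit. With it in the fit, 5 genes passed at 15DAF, which is 0.0245%, and 5 of the 38 were among them.

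**Figure D2:**
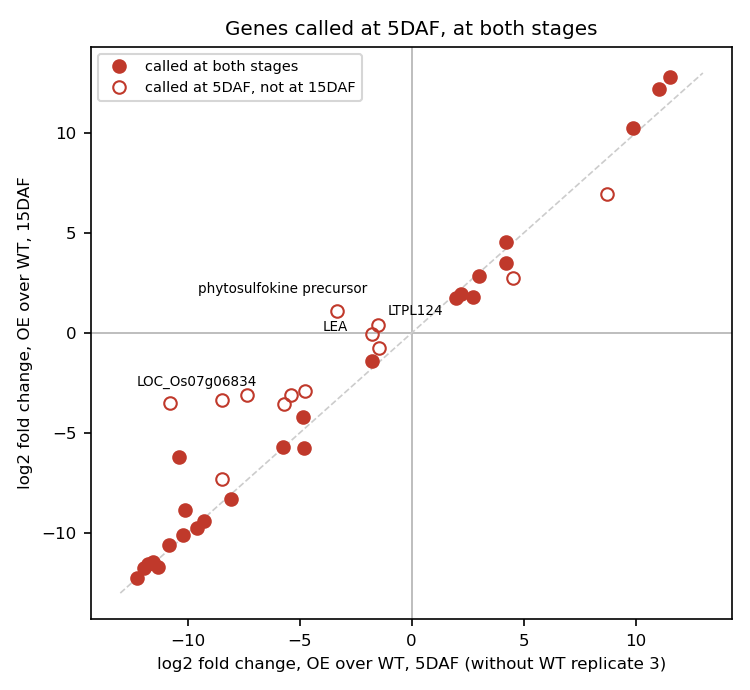
Log2 fold change of OE over WT at 5DAF (horizontal axis) and at 15DAF (vertical axis) for the 38 genes called at 5DAF without WT replicate 3; filled points were called at both stages, and the dashed line marks equal change. The 25 filled points lie on the same side of 0 at both stages, while LTPL124, the LEA gene and the phytosulfokine precursor lie near or above 0 at 15DAF.

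At 15DAF the retrotransposon locus LOC_Os06g05230 had 403, 616 and 868 counts in OE and 0 in WT, and the ureide permease gene LOC_Os12g31850 had 1030, 1069 and 834 counts in OE and 0 in WT. PRR73 read 714, 762 and 534 CPM in OE against 196, 242 and 162 CPM in WT. The 3 WT libraries of 15DAF thus resembled WT replicates 1 and 2 of 5DAF at this gene and not replicate 3. For LTPL124 and the LEA gene the groups overlapped at 15DAF. LTPL124 read 17.5, 26.3 and 23.7 CPM in OE against 10.7, 20.6 and 18.8 CPM in WT, and LOC_Os01g21250 read 19.6, 20.6 and 18.6 CPM in OE against 20.4, 22.8 and 17.4 CPM in WT.

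The change of the OE effect between the stages was tested directly, and 0 genes passed. With all libraries 1226 genes had an unadjusted p under 0.05 (lowest edgeR adjusted p = 0.319). Without WT-labelled replicate 3 there were 708 (lowest edgeR adjusted p = 0.861). By DESeq2, 13 genes passed with all libraries. LTPL124 had a change of 1.90 on the log2 scale and the phytosulfokine precursor LOC_Os12g05260 one of 4.41 in the fit without that library, neither of which passed.

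To read the 5DAF libraries without choosing loci on them, loci were chosen at 15DAF as those with 0 counts in all 3 OE libraries and at least 10 counts in each WT library. There were 14 of them. All 14 were at 0 in each OE and each Ko1 library of 5DAF. All 14 were above 0 in WT replicates 1 and 2, with 2671 and 2618 counts in total, and all 14 were at 0 in the library labelled WT 5DAF replicate 3. The reverse choice gave 5 loci with at least 10 counts in each OE library and 0 in WT at 15DAF. They totalled 607, 754 and 753 counts in OE at 5DAF and 0 in WT replicates 1 and 2. In WT replicate 3 they totalled 620 counts, all of them at LOC_Os12g31850 and LOC_Os11g35620, which were also the only 2 of the 5 that were read in Ko1. LOC_Os06g05230, LOC_Os03g31560 and LOC_Os11g08610 were at 0 in every Ko1 and WT library of both stages. LOC_Os11g08610 had 5, 0 and 7 counts in OE at 5DAF. Whether that library carries another genotype than its label gives was not tested.

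**Figure D3:**
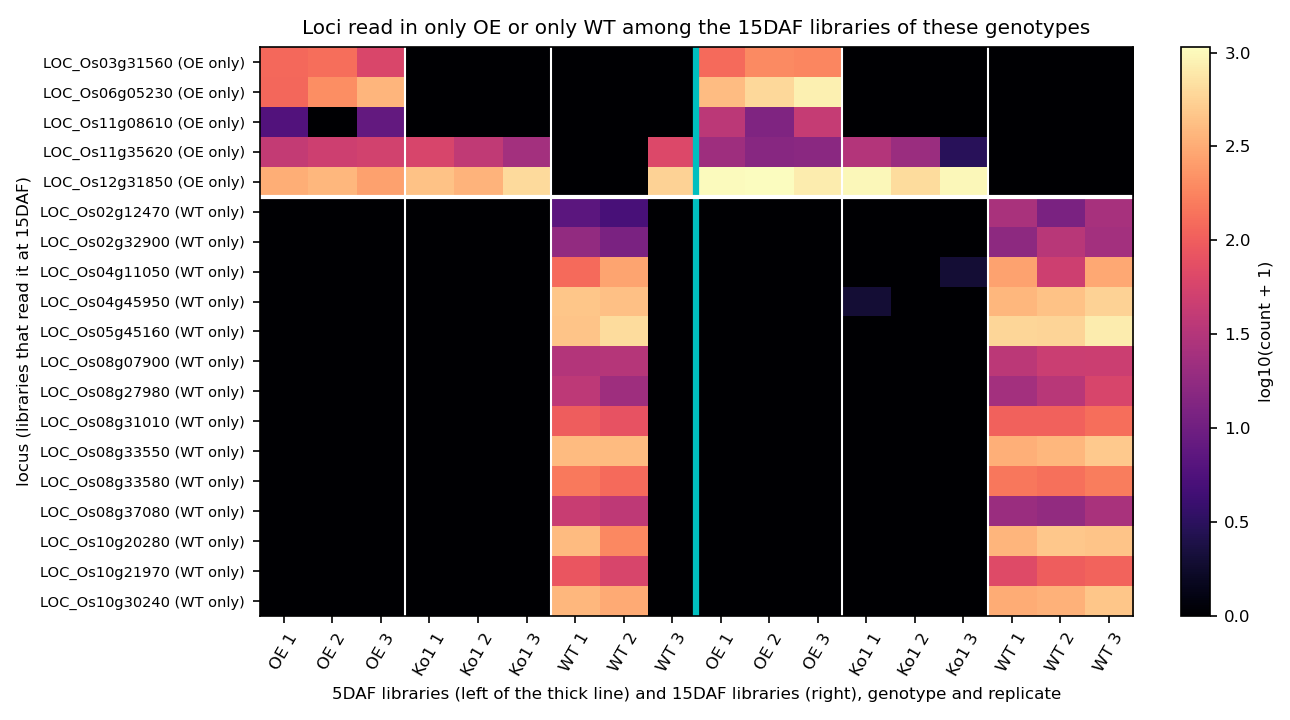
Log10(count + 1) of the 5 loci read in OE only and the 14 read in WT only at 15DAF (rows), in the OE, Ko1 and WT libraries of 5DAF (left of the thick line) and 15DAF (right). In the 5DAF column of WT replicate 3 the 14 loci read in WT only are at 0, and 2 of the 5 read in OE only are above 0.

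No gene of phosphate transport and the starvation response passed between OE and WT, with 26 tested of the 27 listed. With all libraries 6 of them, or 23.1%, had an unadjusted p under 0.05 with lower values in OE, against 5.66% of all genes. Without WT-labelled replicate 3 there was 1, or 3.85%, against 2.73% of all genes. Their median log2 fold change was 0.01 with all libraries and −0.03 without that library, beside −0.00 and 0.01 over all genes.

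At the starvation markers that library read above the other WT libraries. IPS1 (LOC_Os03g05334), whose Arabidopsis counterpart is a noncoding decoy of a microRNA, read 0.0758, 0 and 0 CPM in OE, 124, 142 and 363 CPM in Ko1 and 0, 0.0766 and 200 CPM in WT replicates 1 to 3. It did not pass with all libraries (edgeR adjusted p = 0.229), and without replicate 3 both genotypes held a single count. SPX1 (LOC_Os06g40120), a sensor that holds PHR2 back, read 10.3, 12.5 and 17.7 CPM in OE, 115, 142 and 126 CPM in Ko1 and 20.7, 19.5 and 102 CPM in WT. GDPD2 (LOC_Os02g31030), a phosphodiesterase that frees phosphate from lipid headgroups, read 6.14, 6.58 and 8.73 CPM in OE and 8.83, 7.36 and 69.9 CPM in WT.

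SPX-MFS2 (LOC_Os02g45520), of a family of vacuolar phosphate carriers, was the 1 phosphate gene under an unadjusted p of 0.05 with lower values in OE in the form without replicate 3. It read 29.9, 38.9 and 41.3 CPM in OE against 69.5, 52.6 and 371 CPM in WT, so the OE libraries lay below all WT libraries. Its log2 fold change was −0.73 without replicate 3 (SE 0.224, unadjusted p = 0.00448, edgeR adjusted p = 0.633) and −2.16 with all libraries (SE 0.502, edgeR adjusted p = 0.201). PHT2;1 (LOC_Os02g38020), the carrier that brings phosphate into chloroplasts, read 153, 132 and 202 CPM in OE against 140, 154 and 32.7 CPM in WT. Its log2 fold change was 0.58 with all libraries and 0.15 without replicate 3. The OE and WT ranges overlapped in both forms.

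The regulator PHR2 and the plasma membrane carrier PT8 overlapped between the genotypes. PHR2 (LOC_Os07g25710) read 90.1, 83.0 and 89.1 CPM in OE against 81.6, 83.5 and 96.6 CPM in WT. PT8 (LOC_Os10g30790) read 233, 229 and 446 CPM in OE against 286, 336 and 360 CPM in WT, with a log2 fold change of −0.11 with all libraries (edgeR adjusted p = 0.953). Of the other PHO1 genes, OsPHO1;1 (LOC_Os01g02000) had a log2 fold change of 0.08 and OsPHO1;3 (LOC_Os06g29790) one of −0.35 with all libraries, and −0.31 and −0.02 without replicate 3.

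**Figure D4:**
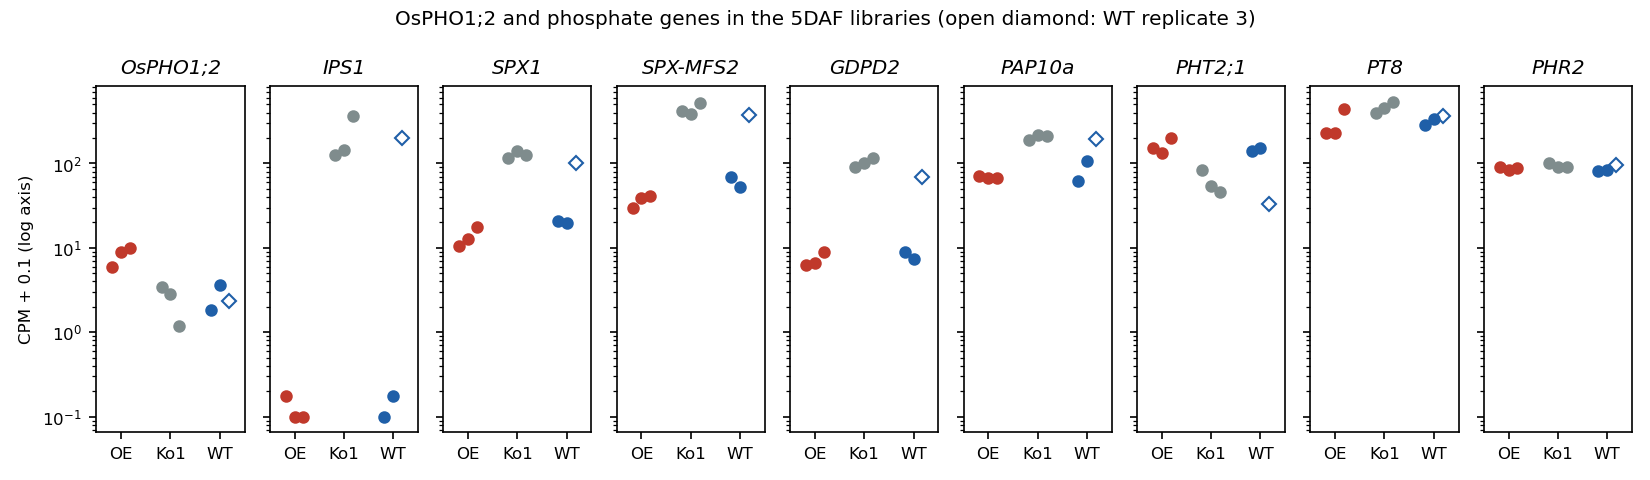
CPM + 0.1 on a log axis for OsPHO1;2 and 8 phosphate genes, with 1 point for each OE, Ko1 and WT library of 5DAF; the open diamond is WT replicate 3. The OE points of OsPHO1;2 lie above all others, and at IPS1, SPX1, SPX-MFS2 and GDPD2 the diamond lies nearer to the Ko1 points than to the OE points.

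No gene of photosynthesis or carbon metabolism passed between OE and WT. None of the 41 light reaction genes tested passed in either form, nor any of the 16 genes of the Calvin-Benson cycle, the 12 of photorespiration, the 15 of chlorophyll synthesis or the 30 of starch and sucrose metabolism. Without WT-labelled replicate 3 the median log2 fold changes were −0.12, −0.00, 0.07, −0.12 and −0.11 in that order of lists. With all libraries they were 0.07, 0.19, 0.33, 0.14 and −0.08. RBCS3 (LOC_Os12g19381), a gene for the small subunit of Rubisco, read 6620.4, 6410.0 and 7547 CPM in OE against 5717, 5907 and 3107 CPM in WT, with its lowest value in replicate 3. GLO1 (LOC_Os03g57220), a peroxisomal glycolate oxidase, read 4923, 4387 and 5238 CPM in OE against 5074, 3993 and 2085 CPM in WT.

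Members of the same lists passed between OE and Ko1, a comparison whose means use no WT library. In the fit without WT replicate 3, 8 of the 12 photorespiration genes, 10 of the 15 chlorophyll genes, 7 of the 16 Calvin-Benson genes, 7 of the 41 light reaction genes and 6 of the 30 starch and sucrose genes were higher in OE than in Ko1 by edgeR, against 10.3% of all genes. Lower in OE were 1 light reaction gene and 3 starch and sucrose genes, and 0 of the other 3 lists, against 10.4% of all genes. With all libraries 3340 genes passed between OE and Ko1, and 46 did without Ko1 replicate 3. Leaving out OE replicate 3 gave 475, OE replicate 1 gave 1076, and OE replicate 2 or Ko1 replicate 2 gave 1809 each. For the chlorophyll regulator GLK1 (LOC_Os06g24070) the log2 fold change was 2.03 against Ko1 (edgeR adjusted p = 0.000700), while against WT it was −0.03 without replicate 3 (edgeR adjusted p = 1) and 0.34 with all libraries (edgeR adjusted p = 0.903).

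**Figure D5:**
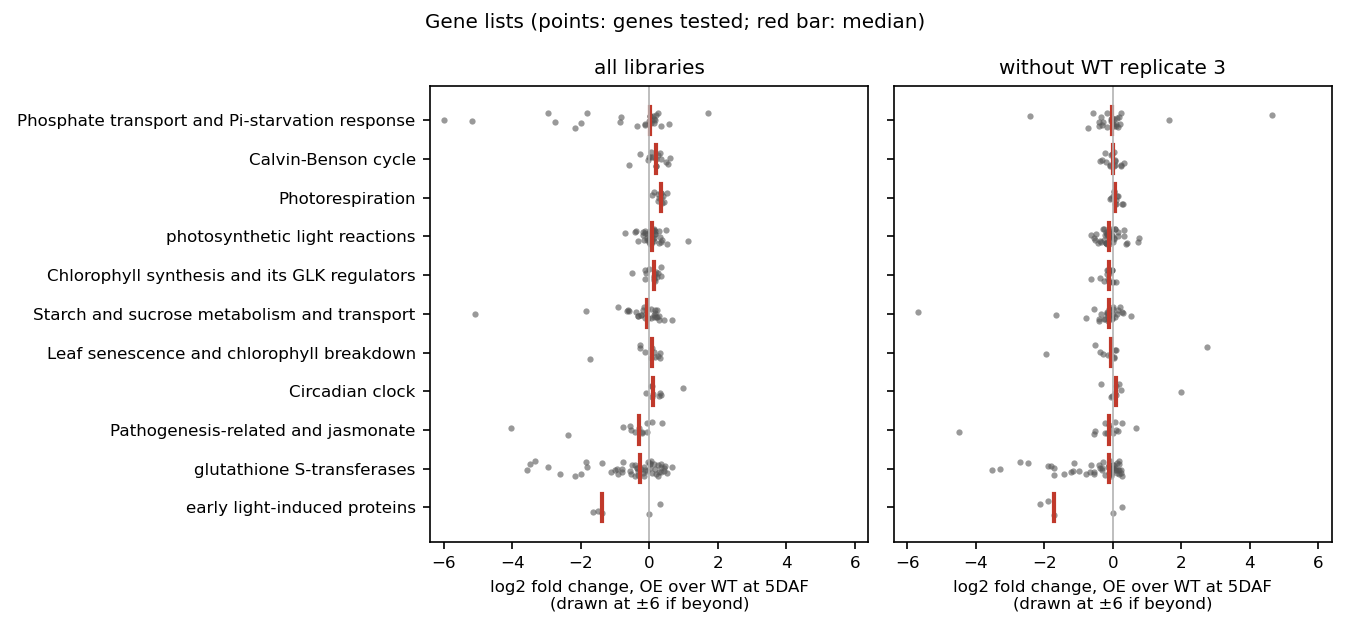
Log2 fold change of OE over WT at 5DAF for the genes tested in 11 lists (rows), with all libraries (left) and without WT replicate 3 (right); each point is a gene and the red bar is the list's median. The photosynthesis lists lie near 0 in both panels, and the low phosphate genes of the left panel are mostly not low in the right one.

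Over the 39 lists examined, 37 had 0 called members with all libraries and 34 had 0 without WT-labelled replicate 3. Without that library the clock list had 1 call among 9 genes tested, PRR73, and with all libraries it had 0, against 0.182% and 0.0391% of all genes. GIGANTEA (GI, LOC_Os01g08700), an evening clock gene, had a log2 fold change of 0.31 with all libraries (edgeR adjusted p = 0.836) and 0.24 without that library (edgeR adjusted p = 1). The class III peroxidases had 1 call among 43 and the LEA and dehydrin list 1 among 10 without that library, in both cases the gene named above. With all libraries they had 0 among 39 and 1 among 9. Of 52 glutathione S-transferase genes, enzymes that conjugate reactive compounds, 0 were called, while 11 had lower values in OE at an unadjusted p under 0.05 in each form, or 21.2%, against 5.66% of all genes with all libraries and 2.73% without that library. Their medians were −0.28 and −0.12 on the log2 scale. The WT libraries differed at some members of the list. LOC_Os10g38740 had 48, 46 and 55 counts in OE against 35, 301 and 65 counts in WT, with WT replicate 2 the highest. At LOC_Os01g37750 all WT libraries were higher, with 56, 79 and 90 counts in OE against 115, 158 and 138 counts in WT. Both forms include WT replicate 2, and its part in this share was not tested.

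Of 5 genes tested for early light-induced proteins, which bind chlorophyll in stressed chloroplasts, 0 passed the adjusted test. In both forms 3 of them, or 60%, had lower values in OE at an unadjusted p under 0.05. Over all genes this share was 5.66% with all libraries and 2.73% without WT-labelled replicate 3. Another of the 5, LOC_Os02g16560, had 0 counts in every OE and WT library of 5DAF. LOC_Os07g08160 read 10.01, 6.43 and 3.51 CPM in OE, 14.9, 2.84 and 10.2 CPM in Ko1 and 14.9, 29.8 and 7.95 CPM in WT. Its log2 fold change was −1.39 with all libraries (edgeR adjusted p = 0.531) and −1.73 without WT-labelled replicate 3 (edgeR adjusted p = 0.559). WT replicate 2 had the highest value, as it did for the chlorophyll breakdown gene SGR (LOC_Os09g36200), at 0.910, 2.02 and 1.48 CPM in OE and 1.52, 10.04 and 3.31 CPM in WT.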

How the data were processed

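RNA from paddy-grown rice flag leaves was taken with an RNeasy Plant Mini Kit and sequenced as Illumina libraries, per the labels' protocols. The authors deposited read counts and FPKM per locus for 18 libraries in 6 groups. Bowtie 0.12.2 and mm8, a mouse build, are named per the submitters' processing notes, while the table lists rice loci. For the rice build behind the coordinates, the annotation, the counter and its strand setting, nothing is given in the sources used here. The deposited FPKM matched the counts per length to within a ratio of 1.00004 in 14683 genes, and served only for marker sums.

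Counts were tested with edgeR 4.0.16 in R 4.3.3 (quasi-likelihood F test, TMM, filterByExpr, 6 group means, two-sided, Benjamini-Hochberg over all genes tested), over 18 libraries and again over 17. Of 55986 loci, 20437 and 20900 were tested. Correlations used log2 CPM with a prior count of 2. Folds against 0 counts used a floor of 3 counts over the group. Counting intervals are exact at 95%, and intervals and floors cover counting error only. Libraries held 13223554 to 18264909 counts. The fit was tested on simulated data. Of genes changed there by 1 log2 unit it recovered 49% with all libraries and 23% without WT 5DAF replicate 3. Of those changed by 2 log2 units it recovered 84% and 77%. A gene that did not pass may therefore still have changed. DESeq2 1.42.0, other scalings and filters, and leaving out each library were the alternatives.

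Named genes were the 12 highest and lowest called genes each way with a description, at least 1 CPM and groups that do not overlap, and up to 4 called or 2 other members per list. Genes described only as expressed proteins, and others outside this rule, were named after their values were seen. The members and all 39 lists, of which 28 were matched by words of the descriptions, were chosen with earlier results of these data known, and the lists by locus were written after the files were seen.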

Additional observations from a re-analysis of the deposited data

How the results depend on the processing

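With all libraries the 8 calls became 94 by DESeq2 (13 higher and 81 lower in OE), 42 with no filter on low counts (8 higher and 34 lower), 4 at an adjusted p under 0.01, 5 with only the groups in the contrast, and 4 to 60 when each library was left out, where 60 came without WT 5DAF replicate 1 and 38 without its replicate 3. Without WT 5DAF replicate 3 the 38 calls became 66 by DESeq2 (16 higher and 50 lower), 25 at an adjusted p under 0.01, and 22 to 63 when a further library was left out, of which 22 came without WT 5DAF replicate 2 and 63 without its replicate 1. DESeq2 kept 7 of the 8 and 37 of the 38 calls. At 15DAF the 5 calls became 25 by DESeq2, 26 with no filter, 3 under 0.01, 52 with only the groups in the contrast, and 3 to 29 by library left out, with 29 without WT 5DAF replicate 3. The change between stages had 0 calls, against 13 by DESeq2 and 0 to 3 by library left out. OE against Ko1 had 3340 calls, against 90 under 0.01 and 46 to 4334 by library left out, with 46 without Ko1 5DAF replicate 3. The 14 loci chosen at 15DAF became 8 at a minimum of 50 counts. The cause of these shifts was not tested. No called gene changed sign under the alternatives run, while fold changes that had not passed did so in 344 of 4572 values. Leaving out WT 5DAF replicate 3 turned the median of the light reaction list to −0.12, against 0.07 with all libraries, and that of the chlorophyll list to −0.12, against 0.14. It also turned GLK1 to −0.03, against 0.34, and OsPHO1;1 to −0.31, against 0.08. OE against Ko1 had 1621 genes higher and 1719 lower, but 1822 and 1714 with the replicate block, 585 and 491 without OE 5DAF replicate 1, and 926 and 883 without OE 5DAF replicate 2.

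Same-numbered libraries deviated together in 1 of the 3 pairs (r = 0.172, −0.151 and −0.135). With so few pairs this cannot decide whether the numbers pair the samples. With the replicate number as a block the calls were 7 with all libraries, 31 without WT 5DAF replicate 3, 3 at 15DAF, 0 for the change between stages and 3536 for OE against Ko1.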

Other observations

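OE 15DAF replicate 1 carried counts at 5 genes that were low in the other OE libraries. LOC_Os07g06834 had 461, 0 and 0 counts in OE at 15DAF, and LOC_Os07g05840 had 602, 18 and 1. The CACTA locus LOC_Os07g05850 had 125, 4 and 0 counts, the receptor-like kinase gene LOC_Os08g14950 had 69, 11 and 1, and the urea transporter gene LOC_Os10g42960 had 105, 9 and 5. All 5 were called lower in OE at 5DAF without WT 5DAF replicate 3. They were picked after their values were seen.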
